A study of Homo sapiens with 4 samples.

Results

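The transcripts described here are those of the matrix metalloproteinases (MMPs), the ADAMs, the ADAMTS proteases and the tissue inhibitors of metalloproteinases (TIMPs) in MCF10A cells with and without HSF1 overexpression. Members were chosen by symbol, as every gene of the authors' normalized table whose name is MMP, TIMP, ADAM or ADAMTS followed only by a number, with pseudogenes and antisense genes left out. This gave 65 protein-coding genes of the 22321 rows of that table, with 22 MMPs, 20 ADAMs, 19 ADAMTS genes and 4 TIMPs, and their raw counts were taken by Ensembl identifier from a table of 63856 genes. MCF10A is an established, non-tumorigenic line of human breast epithelium, grown with horse serum, insulin, hydrocortisone and EGF. The wild type group (WT) held 2 libraries of unmodified cells. The HSF1-pLVX group held 2 libraries of cells transduced with a lentivirus that carries the human HSF1 coding sequence in the pLVX-Puro plasmid and selected with puromycin. Empty-vector cells were not analysed here, so that the vector, the selection and the separate culture cannot be told apart from HSF1 itself. The sources do not say whether replicates came from separate transductions, so p-values measure only the spread between these libraries.

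MMPs are zinc-dependent proteases that cut collagens, gelatin, laminins and other matrix proteins, either after secretion or while anchored in the cell membrane, and most are made as inactive precursors. ADAMs are membrane proteins of the same wider superfamily, known as sheddases because the active ones release the outer parts of growth factors, Notch receptors and adhesion molecules. ADAMTS proteases are secreted relatives with thrombospondin repeats that trim proteoglycans, procollagens and fibrillin-associated proteins, and TIMPs block these enzymes with different preferences. In the mammary gland, this balance of proteases and inhibitors is known for its part in duct branching and in the remodeling that follows lactation.

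Library totals lay between 18688109 and 24184285 counts. HSF1, the introduced gene, was at 200 and 189 CPM (counts scaled to a common library size, with TMM normalization) in WT replicates 1 and 2 and at 982 and 999 in HSF1-pLVX cells, a log2 fold change of 2.35 ± 0.148, where fitted log2 fold changes are given with their standard error from here on. All 8 markers listed for mammary epithelium were at 1 CPM or more in every library, although their sum fell from 15270 and 15241 CPM to 7184 and 7665, with 5 of the 8, among them KRT14, KRT8 and EPCAM, past 2-fold downwards and 2, KRT5 and TP63, past it upwards. Since MMPs, TIMPs and ADAMTS genes are also abundant in stromal cells, the fibroblast list was summed as well. It reached 7.88 and 10.9 CPM in WT and 15.02 and 13.9 CPM in HSF1-pLVX cells, with COL1A2 and COL3A1 at no more than 0.0538 CPM and LUM at no more than 0.0503 CPM in any library. DCN, the matrix proteoglycan decorin on the same list, was at 0.0533 and 0.161 CPM in WT and rose to 3.74 and 4.38 CPM. Most of the remaining sum came from COL1A1, at 7.19 and 10.4 CPM in WT and 10.7 and 9.21 CPM in HSF1-pLVX cells, which was not called, and PDGFRB, too low to test, was at 0.107 and 0 CPM and then at 0.398 and 0.252 CPM. The leukocyte list did not exceed 0.538 CPM in sum, the adipocyte list 0.554 CPM, and PTPRC was at 0. The endothelial list was at 2.66 and 1.72 CPM in WT and 12.9 and 14.1 CPM in HSF1-pLVX cells, most of it from KDR, while TIE1 did not exceed 0.0398 CPM. The part of these shifts in the results was not tested.

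Of the 65 members, 31 passed edgeR's filter on low counts and were tested together with all other genes (15830 in all). The call rested on an adjusted p of 0.05 or less, and a 2-fold call on a log2 fold change of 1 or more in size as well. In HSF1-pLVX cells 20 of the 31 tested members were lower and 8 higher, where 32.7% of all tested genes were lower and 32.5% higher (edgeR's quasi-likelihood test, Benjamini-Hochberg adjustment). At least 2-fold lower were 17 members and at least 2-fold higher were 5, beside a background of 14.0% and 14.9% of all tested genes. The median log2 fold change was -1.55 over the 31 members and 0.02 over all genes tested. All 22 members past 2-fold moved the same way in both replicate pairs. They were called from these same libraries, so this is no separate check. In 30 of the 31 members the CPM values of the groups did not overlap, which was also true of 83.1% of all tested genes. The filter shapes these counts, because 6 of the tested members reached its level in WT libraries only and 2 in HSF1-pLVX libraries only, and such genes could not pass without differing. In RNA from whole cultures, fewer cells that carry a transcript and less of it per cell cannot be told apart.

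**Figure D1:**
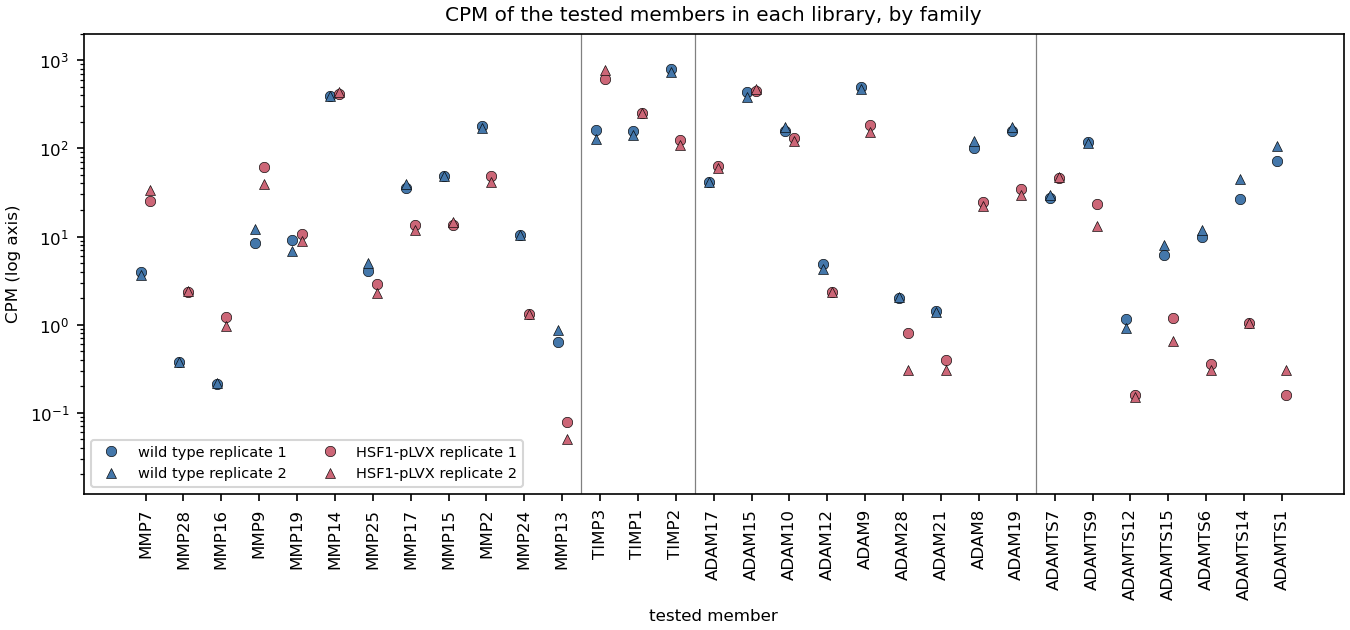
CPM of the 31 tested members in each of the 4 libraries on a log axis, in family order (MMP, TIMP, ADAM, ADAMTS) and by fold change within a family. Blue symbols are wild type and red symbols HSF1-pLVX, with a circle for replicate 1 and a triangle for replicate 2, and only for MMP19 do the ranges of the groups overlap.

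The other 34 members held at most 9 counts in any library. No count was found in any library for 16 of them (ADAM2, ADAM7, ADAM18, ADAM29, ADAM30, ADAM33, ADAMTS13, ADAMTS16, ADAMTS18, ADAMTS19, ADAMTS20, MMP8, MMP11, MMP12, MMP26 and MMP27), where 3 counts per library is the limit that a count of 0 allows. The remaining 18 were ADAM11, ADAM20, ADAM22, ADAM23, ADAM32, ADAMTS2, ADAMTS3, ADAMTS4, ADAMTS5, ADAMTS8, ADAMTS10, ADAMTS17, MMP1, MMP3, MMP10, MMP20, MMP21 and TIMP4. None of the 8 ADAMs that are known to lack the catalytic zinc motif (ADAM2, 7, 11, 18, 22, 23, 29 and 32) was among the tested genes, against 9 of the 12 that carry it. For 8 symbols (ADAM2, ADAM9, ADAM18, ADAM32, ADAMTS12, ADAMTS13, MMP11 and MMP28) the authors' table lists a second row outside the main chromosome. Reads that match both copies may have been split or dropped, so the low values of these genes, such as the zeros of MMP11 and ADAMTS13, are uncertain.

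Promoter sequences are shown for 7 members that stand for the patterns described next: TIMP3, TIMP1 and MMP7, which rose, MMP14, the most abundant MMP, which was not called, and ADAMTS14, ADAMTS6 and ADAM19, which fell. The RefSeq table of promoters (GRCh38.p14) held 38 of the 65 members. Each line gives the 150 bases before the start that RefSeq annotates, which can differ from the start in the count table, 5′ to 3′ on the strand of the gene. Capitals mark GC boxes (GGGCGG or CCGCCC, the letters read by SP1-type factors) and the AP-1 letters TGANTCA.
TIMP3 (chr22:32801555-32801704, plus strand): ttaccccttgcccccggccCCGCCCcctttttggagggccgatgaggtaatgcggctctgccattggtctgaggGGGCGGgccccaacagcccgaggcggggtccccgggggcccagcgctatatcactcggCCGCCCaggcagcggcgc
TIMP1 (chrX:47582286-47582435, plus strand): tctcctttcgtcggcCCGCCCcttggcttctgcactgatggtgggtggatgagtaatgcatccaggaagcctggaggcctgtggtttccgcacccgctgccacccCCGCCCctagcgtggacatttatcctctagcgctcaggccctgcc
MMP7 (chr11:102530748-102530897, minus strand): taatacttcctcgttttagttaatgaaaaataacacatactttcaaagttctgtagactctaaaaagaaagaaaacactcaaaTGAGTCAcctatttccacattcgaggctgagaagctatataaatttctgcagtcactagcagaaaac
MMP14 (chr14:22836435-22836584, plus strand): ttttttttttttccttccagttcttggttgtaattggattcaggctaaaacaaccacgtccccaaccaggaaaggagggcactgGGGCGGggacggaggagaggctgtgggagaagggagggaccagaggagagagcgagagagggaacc
ADAMTS14 (chr10:70672356-70672505, plus strand): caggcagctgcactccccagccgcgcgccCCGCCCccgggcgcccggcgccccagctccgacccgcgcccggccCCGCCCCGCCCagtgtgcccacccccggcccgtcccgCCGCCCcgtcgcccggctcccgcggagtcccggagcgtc
ADAMTS6 (chr5:65481921-65482070, minus strand): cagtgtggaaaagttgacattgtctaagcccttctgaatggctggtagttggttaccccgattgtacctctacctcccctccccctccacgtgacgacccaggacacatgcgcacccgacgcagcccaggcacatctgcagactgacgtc
ADAM19 (chr5:157575776-157575925, minus strand): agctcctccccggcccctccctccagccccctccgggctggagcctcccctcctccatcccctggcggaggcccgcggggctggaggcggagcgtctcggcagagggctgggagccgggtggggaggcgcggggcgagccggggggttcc

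Motifs were searched on both strands in the 250 bases before the start, of which the last 150 are printed. Among the 7 promoters, TGANTCA was found only in that of MMP7, as TGAGTCA at positions -67 to -61 from the start. It was not particular to members that rose. Of the 17 tested members with a promoter in the table, ADAMTS12, which fell, held it as well, as TGAATCA at -84 to -78. In all, 4 of the 38 members held it. Of 35116 promoters of the table, 6.57% hold these letters. GC boxes, present in 42.6% of all promoters, were found in those of TIMP3, TIMP1, MMP14 and ADAMTS14, where 2 of those of ADAMTS14 share a base, and not in those of MMP7, ADAMTS6 and ADAM19. The paired heat shock element, written as GAANNTTC or TTCNNGAA and recognized by HSF1, is held by 11.6% of all promoters and was found in none of the 7. These letters may lie outside the window searched.

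Among the inhibitors, TIMP2 fell and TIMP3 rose. TIMP2, which binds MMP14 and takes part in the activation of pro-MMP2 as well as blocking it, was at 793 and 746 CPM in WT replicates 1 and 2 and at 125 and 111 CPM in HSF1-pLVX replicates 1 and 2. Both HSF1-pLVX libraries lay far under both WT libraries, and the log2 fold change was -2.71 ± 0.141. The gene (ENSG00000035862.12) lies on chromosome 17 of hg38 from 78852977 to 78925387 and shares 10.03% of its exonic bases with other genes. TIMP3, an inhibitor that stays bound to the matrix and also blocks ADAM17 and several ADAMTS proteases, moved the other way. It was at 161 and 128 CPM in WT and at 613 and 771 CPM in HSF1-pLVX cells, a log2 fold change of 2.26 ± 0.138. TIMP3 (ENSG00000100234.11) lies on chromosome 22 from 32801701 to 32863043. TIMP1, a secreted inhibitor of most soluble MMPs, rose by a smaller step, from 159 and 143 CPM to 252 and 252 CPM (log2 fold change 0.74 ± 0.115). TIMP4 held 1 count in a single HSF1-pLVX library and none in the others. The adjusted p was 1.29e-79 for TIMP2, 1.36e-58 for TIMP3 and 6.17e-10 for TIMP1 with the replicate number as a block, and 5.09e-11, 2.63e-09 and 6.08e-06 without it (edgeR's quasi-likelihood test).

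Levels of different genes were compared as RPKM, here CPM per kilobase of summed exon length. In WT cells TIMP2 stood first of all tested members at 137 ± 5.9 RPKM (SD, n = 2), followed by TIMP1 at 98.3 ± 7.4, MMP14 at 88.6 ± 0.18 and ADAM9 at 69.8 ± 2.5. In HSF1-pLVX cells the order began with TIMP1 at 164 ± 0.041 and TIMP3 at 150 ± 24, which did not differ beyond their summed spread, then MMP14 at 95.7 ± 4.7 and ADAM15 at 70.0 ± 2.3. TIMP2 had dropped to the level of ADAM9 and MMP9, at 20.9 ± 1.8, 24.4 ± 3.2 and 21.4 ± 6.5 RPKM. The summed RPKM of the TIMPs was 279 and 253 in WT and 319 and 351 in HSF1-pLVX cells. Of this sum, TIMP2 held 51.3 ± 1.3% in WT and 6.27 ± 0.96% in HSF1-pLVX cells, while the part of TIMP3 went from 11.7 ± 1.1% to 44.7 ± 4.2% (SD, n = 2). The ratio of TIMP3 to TIMP2 was 0.248 and 0.210 in WT and 6.01 and 8.53 in HSF1-pLVX libraries. A permutation of 2 libraries against 2 cannot give an exact p below 0.333, so sums and ratios are given without a test.

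**Figure D2:**
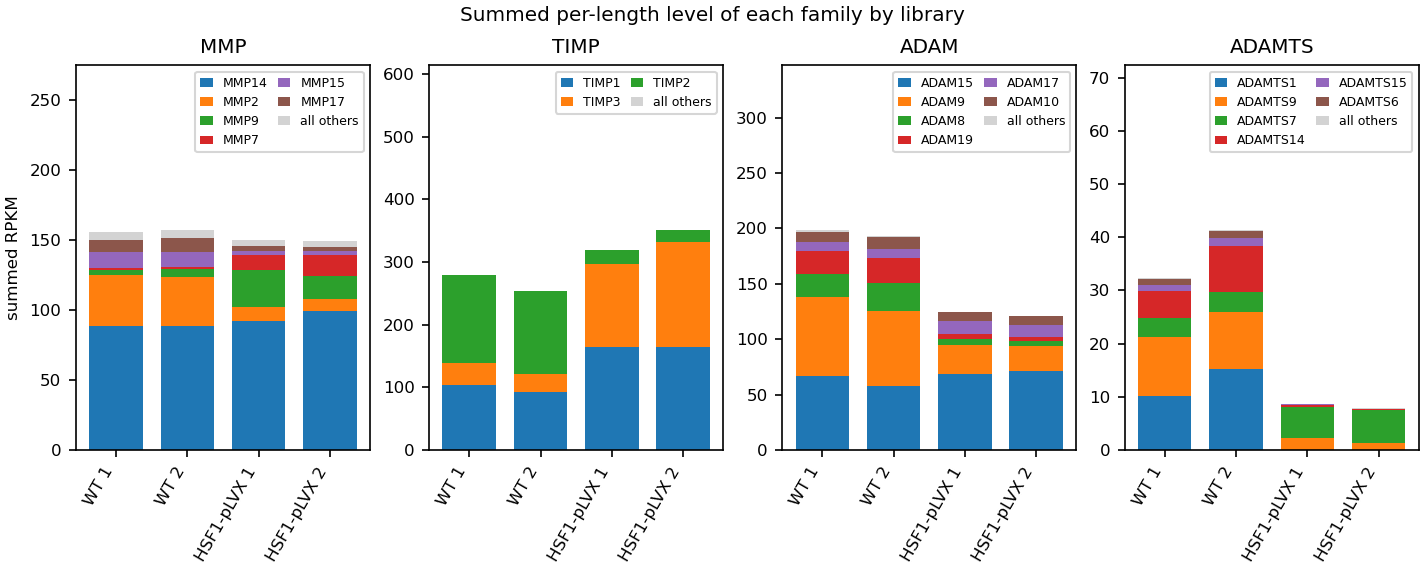
Summed RPKM of each family in each library, 1 stacked bar per library, with the most abundant members in colour and all others in grey. The MMP bars have nearly equal heights (149 to 157 RPKM) but different make-up, the green TIMP2 block shrinks while the orange TIMP3 block grows, and the ADAMTS bars fall from 32.4 and 41.4 to 8.68 and 7.81 RPKM.

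The summed RPKM of the MMPs hardly moved, at 156 and 157 in WT and 150 and 149 in HSF1-pLVX cells, while single MMPs changed strongly in both directions. Of the 12 tested MMPs, 4 were higher, 6 lower and 2 not called, where 32.5% of all tested genes were higher and 32.7% lower, so that the share of higher MMPs was close to that of all genes. MMP13 reached the level of the filter in WT only, and MMP16 and MMP28 in HSF1-pLVX cells only. MMP14, the membrane-type MMP that cuts collagen at the cell surface and activates pro-MMP2, made up 56.6 ± 0.15% of the MMP sum in WT and 64.0 ± 3.5% in HSF1-pLVX cells (SD, n = 2). It was at 395 and 396 CPM in WT and at 412 and 442 CPM in HSF1-pLVX cells. The higher group lay only slightly above the lower, and its log2 fold change of 0.11 had a 95% interval from -0.14 to 0.36 (adjusted p = 0.466 in edgeR's quasi-likelihood test). MMP14 (ENSG00000157227.12) lies on chromosome 14 from 22836557 to 22849027.

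The gelatinases MMP2 and MMP9, which share gelatin and basement membrane collagen as substrates, went opposite ways. MMP2 was at 180 and 173 CPM in WT and at 49.2 and 41.9 CPM in HSF1-pLVX cells, a log2 fold change of -1.95 ± 0.110. MMP9 was at 8.36 and 12.1 CPM in WT and at 60.8 and 39.3 CPM in HSF1-pLVX cells, a log2 fold change of 2.27 ± 0.125. Replicate 1 was the higher of the HSF1-pLVX libraries for MMP9, and even the lower one exceeded both WT libraries. The log2 ratio of MMP9 was 2.86 within replicate 1 and 1.70 within replicate 2, a gap far wider than its standard error. On the RPKM scale MMP9 was at 0.0983 and 0.148 of MMP2 in WT and at 2.61 and 1.98 of it in HSF1-pLVX cells, so that their order was reversed. MMP2 (ENSG00000087245.12) lies on chromosome 16 from 55389700 to 55506691 and MMP9 (ENSG00000100985.7) on chromosome 20 from 46008908 to 46016561. MMP9 shares 18.4% of its exonic bases with the antisense gene SLC12A5-AS1, and the strand setting of the counting is not given in the sources used here.

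MMP7, or matrilysin, a small MMP without the hemopexin domain that is typical of glandular epithelium, rose most of the tested MMPs by fitted fold change. It was at 3.995 and 3.66 CPM in WT and at 25.3 and 34.1 CPM in HSF1-pLVX cells, a log2 fold change of 2.94 ± 0.155. Its gene (ENSG00000137673.8, chromosome 11, 102520508 to 102530753) opens a row of 9 MMP genes that ends with MMP13 (ENSG00000137745.11, 102942995 to 102955734) and spans 435 kb with no other protein-coding gene of the count table inside. Of these 9, which in order are MMP7, MMP20, MMP27, MMP8, MMP10, MMP1, MMP3, MMP12 and MMP13, only MMP7 and MMP13 were tested. MMP13, a collagenase, held 12 and 16 counts in WT and 2 and 1 in HSF1-pLVX cells. It was called lower, but its HSF1-pLVX counts did not exceed 3 in a library, so no fold is given, and the ends of the row moved in opposite directions. The interstitial collagenase MMP1 held 0 and 1 counts in WT and 0 and 1 in HSF1-pLVX cells, and the stromelysin MMP3 held 1 and 4 in WT and 4 and 0. MMP10, another stromelysin, held 3 and 2 counts in WT and 0 and 0 in HSF1-pLVX cells. A change in these 3 genes was not detectable at this depth.

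The membrane-type MMPs apart from MMP14 mostly fell. MMP15, a transmembrane protease related to MMP14, was at 49.0 and 48.7 CPM in WT and at 13.5 and 14.5 CPM in HSF1-pLVX cells (log2 fold change -1.80 ± 0.118). MMP17, held in the membrane by a lipid anchor, was at 35.3 and 39.1 CPM and then at 13.5 and 11.8 CPM (log2 fold change -1.55 ± 0.123). MMP24, a transmembrane member best known in nervous tissue, fell from 10.4 and 10.5 CPM to 1.31 and 1.31 CPM (log2 fold change -2.99 ± 0.228), and 21.8% of its exonic bases are shared with genes on the other strand. In each of these the libraries of a group lay close together and the groups were well apart. MMP25, the other lipid-anchored member, had 4.05 and 5.06 CPM in WT and 2.91 and 2.32 CPM in HSF1-pLVX cells. Its log2 fold change of -0.79 was called (adjusted p = 0.00190, edgeR), but DESeq2's Wald test gave an adjusted p of 0.151, and without HSF1-pLVX replicate 2 edgeR gave 0.101. As 32.8% of its exonic bases are shared with MMP25-AS1, its value is uncertain. MMP16 was the membrane-type member that rose, from 4 and 4 counts to 31 and 19 (log2 fold change 2.32 ± 0.533), and DESeq2's Wald test did not call it (adjusted p = 0.0796).

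MMP28, or epilysin, an MMP of epithelial tissues and skin, rose from 0.373 and 0.377 CPM to 2.35 and 2.42 CPM (log2 fold change 2.65 ± 0.413). Its second row, outside the main chromosome, held 0 and 0 counts in WT and 1 and 14 in HSF1-pLVX cells, beside 59 and 48 counts on chromosome 17 in the latter. MMP19 was at 9.11 and 6.84 CPM in WT and at 10.8 and 8.81 CPM in HSF1-pLVX cells, with overlapping groups. It was not called (log2 fold change 0.30, 95% interval -0.03 to 0.63), although without WT replicate 1 the log2 fold change was 0.54 and the adjusted p 0.00950 in edgeR's test. Together MMP9 and MMP7 went from 2.80 ± 0.71% and 1.05 ± 0.070% of the MMP sum to 14.3 ± 4.3% and 8.55 ± 1.8%, and MMP2 from 22.8 ± 0.76% to 6.17 ± 0.66% (RPKM, SD, n = 2).

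**Figure D3:**
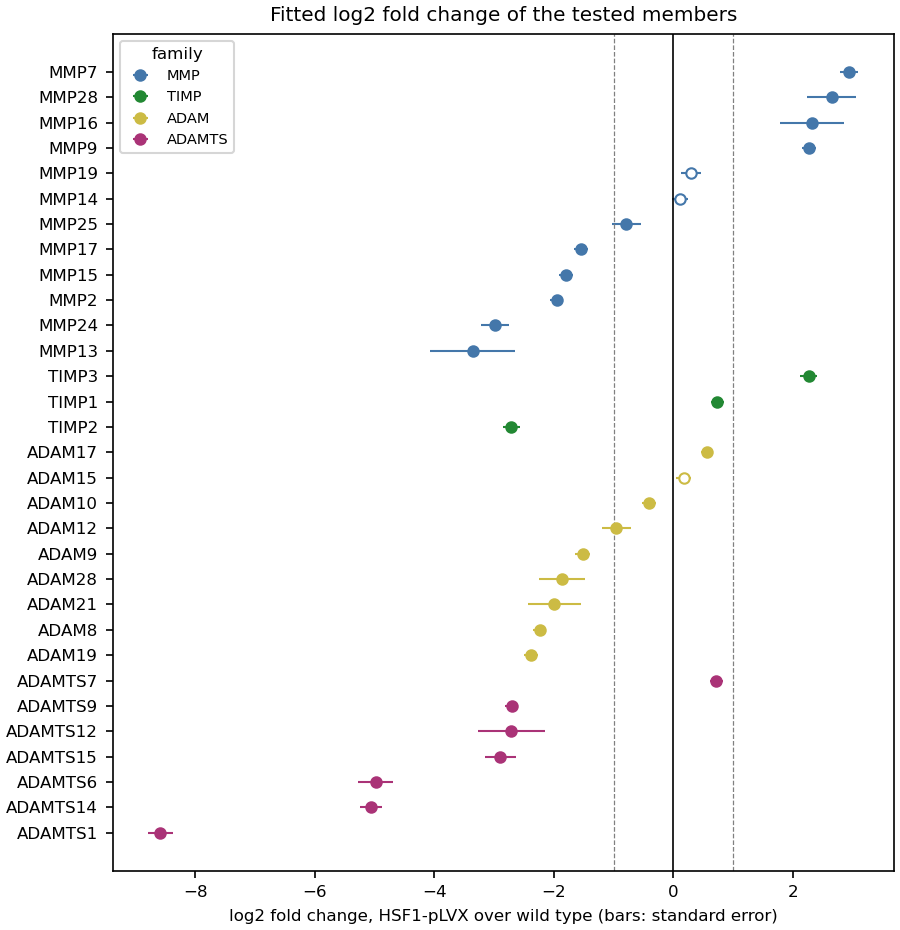
Fitted log2 fold change of the 31 tested members, HSF1-pLVX over wild type, with standard errors as bars, coloured by family and ordered within it. Filled symbols were called and open symbols (MMP19, MMP14 and ADAM15) were not, dashed lines mark 2-fold, and 6 of the 7 ADAMTS genes lie left of the lower line. The value of MMP13 rests on 1 and 2 counts in HSF1-pLVX cells and is no measured fold.

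The ADAMTS proteases fell more than any other family here by median, with 6 of 7 tested genes at least 2-fold lower, 1 higher and a median log2 fold change of -2.90, where 14.0% of all tested genes were at least 2-fold lower. Of these 7 genes, 3 (ADAMTS1, ADAMTS6 and ADAMTS12) reached the level of the filter in WT only, where they were high. Their summed RPKM was 32.4 and 41.4 in WT and 8.68 and 7.81 in HSF1-pLVX cells, 0.224 of the WT mean. ADAMTS1, a secreted protease that cuts versican and aggrecan, all but disappeared. It was at 71.7 and 107 CPM in WT and at 0.159 and 0.302 CPM in HSF1-pLVX cells, or 1346 and 1996 counts against 4 and 6. WT replicate 2 was the higher of the WT libraries, and the gap between the groups was far larger than that spread. The log2 fold change was -8.58 (adjusted p = 1.60e-11 in edgeR's test without the block). With so few counts in HSF1-pLVX cells its size is rough, and it ran from -9.07 to -8.18 with single libraries left out. ADAMTS1 (ENSG00000154734.14) lies on chromosome 21 from 26835747 to 26845409, beside ADAMTS5, which held 1 count in all.

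ADAMTS9, which also cuts proteoglycans, was the other abundant proteoglycanase, at 119 and 115 CPM in WT and at 23.5 and 13.1 CPM in HSF1-pLVX cells (log2 fold change -2.70 ± 0.112). ADAMTS15, another versican-cutting member, was at 6.23 and 8.07 CPM in WT and at 1.19 and 0.654 CPM in HSF1-pLVX cells (log2 fold change -2.90 ± 0.263). All 3 tested members of the proteoglycanase group were thus at least 2-fold lower, beside 14.0% of all tested genes. Of the 7 listed in this group, 4 were not tested, and ADAMTS1 reached the level of the filter in WT only. ADAMTS14, which removes the amino-terminal propeptide of fibrillar procollagens, was at 26.9 and 45.5 CPM in WT and at 1.04 and 1.06 CPM in HSF1-pLVX cells, a log2 fold change of -5.05 ± 0.183. The related ADAMTS2 and ADAMTS3 were not tested, with at most 8 counts in a library. ADAMTS6, of the group that acts on fibrillin microfibrils, went from 9.80 and 11.9 CPM to 0.358 and 0.302 CPM (log2 fold change -4.98 ± 0.293). ADAMTS12, known for cutting cartilage oligomeric matrix protein, held 22 and 17 counts in WT and 4 and 3 in HSF1-pLVX cells (log2 fold change -2.71 ± 0.561).

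ADAMTS7, a relative of ADAMTS12 that also cuts cartilage oligomeric matrix protein, was the exception. It was at 27.4 and 29.3 CPM in WT and at 45.9 and 47.5 CPM in HSF1-pLVX cells, a log2 fold change of 0.72 ± 0.110 (adjusted p = 2.72e-10, edgeR). Its part of the ADAMTS sum went from 10.1 ± 1.3% to 73.6 ± 7.3%, whereas ADAMTS1 went from 34.0 ± 3.9% to 0.404 ± 0.20% (RPKM, SD, n = 2). ADAMTS7 has pseudogene copies on the same chromosome, of which ADAMTS7P1, ADAMTS7P3 and ADAMTS7P4 held at most 12 counts in any library. Reads shared with such copies may have been split or dropped from every row. The value of ADAMTS7 is therefore uncertain, and the pseudogene counts do not bound by how much.

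Among the ADAMs, 9 genes were tested, all of the group with the catalytic motif. Of these, 7 were lower, 1 was higher and 1 was not called, beside 32.7% and 32.5% of all tested genes lower and higher, and 2 of the lower genes, ADAM21 and ADAM28, reached the level of the filter in WT only. The summed RPKM of the ADAMs was 198 and 193 in WT and 125 and 121 in HSF1-pLVX cells. ADAM10 and ADAM17, the main sheddases of the family, both changed by less than 2-fold. ADAM10, which sheds Notch receptors and E-cadherin, was at 160 and 173 CPM in WT and at 131 and 120 CPM in HSF1-pLVX cells (log2 fold change -0.41 ± 0.109). The call of ADAM10 rests on all 4 libraries, since without HSF1-pLVX replicate 2 the adjusted p was 0.0638 in edgeR's test. ADAM17, the sheddase of TNF and of several EGF-family ligands, rose from 41.3 and 41.9 CPM to 62.9 and 59.9 CPM (log2 fold change 0.56 ± 0.104), with 24.1% of its exonic bases shared with IAH1 on the other strand. On the RPKM scale ADAM17 was at 0.216 and 0.275 of the level of its inhibitor TIMP3 in WT and at 0.0861 and 0.0652 of it in HSF1-pLVX cells.

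ADAM15, a disintegrin that binds integrins, was at 439 and 380 CPM in WT and at 450 and 472 CPM in HSF1-pLVX cells. It was not called (log2 fold change 0.17, 95% interval -0.09 to 0.43), except without WT replicate 1, where the log2 fold change was 0.29 and the adjusted p 0.0375 (edgeR). ADAM9, a widely expressed sheddase, fell from 494 and 470 CPM to 185 and 153 CPM (log2 fold change -1.52 ± 0.127), and ADAM15 was the more abundant of the pair in HSF1-pLVX cells, while in WT their levels in RPKM did not differ beyond their summed spread. ADAM9 held 35.6 ± 0.57% of the ADAM sum in WT and 19.9 ± 2.2% in HSF1-pLVX cells, and ADAM15 31.8 ± 2.6% and 57.0 ± 3.1% (RPKM, SD, n = 2).

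ADAM19 and ADAM8 fell by similar amounts. ADAM19, which processes neuregulin and is expressed in mesenchyme and heart, was at 159 and 174 CPM in WT and at 34.2 and 29.4 CPM in HSF1-pLVX cells (log2 fold change -2.38 ± 0.111). ADAM8, best known from leukocytes, was at 100.2 and 120.3 CPM in WT and at 24.4 and 22.1 CPM in HSF1-pLVX cells (log2 fold change -2.24 ± 0.108), while the leukocyte list as a whole stayed under 0.54 CPM in every library. ADAM12, an ADAM of muscle and stroma, had 4.85 and 4.31 CPM in WT and 2.35 and 2.37 CPM in HSF1-pLVX cells. Its log2 fold change of -0.96 was called by edgeR (adjusted p = 0.000187) and not by DESeq2's Wald test (adjusted p = 0.0768). Counts were few for the remaining pair. ADAM28 went from 38 and 38 counts to 20 and 6 (log2 fold change -1.87, and -2.72 without HSF1-pLVX replicate 1). ADAM21, which has the close relative ADAM20 on the same chromosome, where shared reads could be split,, went from 27 and 26 counts to 10 and 6 (log2 fold change -1.99), a change that DESeq2's Wald test did not call (adjusted p = 0.0597).

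Genes that work with these families were taken from 7 lists of 82 genes in all, of which 65 were tested. At least 2-fold lower were 24 and at least 2-fold higher 14, beside 14.0% and 14.9% of all tested genes, and the median log2 fold change was -0.51 against 0.02 for all genes tested.

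The plasminogen activator system, which makes plasmin and so activates several pro-MMPs, was tested for 6 of its 8 genes. All 6 were lower, 5 of them at least 2-fold, beside 32.7% and 14.0% of all tested genes. PLAT, tissue plasminogen activator, fell from 571 and 609 CPM to 106 and 103 CPM (log2 fold change -2.49 ± 0.133). SERPINB2, an inhibitor of plasminogen activators, fell from 1131 and 1208 CPM to 54.4 and 31.5 CPM (log2 fold change -4.81 ± 0.168). PLAUR, the urokinase receptor, fell by 1.90 on the log2 scale. Urokinase itself, PLAU, had a log2 fold change of -0.51 that was no longer called without HSF1-pLVX replicate 2 (-0.40, adjusted p = 0.162, edgeR).

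Of the 8 proprotein convertases, which remove the prodomain of membrane-type MMPs, ADAMs and ADAMTS proteases, 6 were tested, 3 were lower and 1 higher, beside 32.7% and 32.5% of all tested genes. None was past 2-fold upwards, but 1 was with either WT library left out or without the filter on low counts. FURIN, the ubiquitous member, fell from 376 and 355 CPM to 118 and 127 CPM (log2 fold change -1.58 ± 0.121). The sheddase cofactors comprise the iRhoms with FRMD8, which carry ADAM17 to the cell surface, and the tetraspanins that do so for ADAM10. All 9 were tested, with 2 past 2-fold upwards and 4 downwards, beside 14.9% and 14.0% of all tested genes. The iRhom RHBDF2 was at 70.6 and 71.6 CPM in WT and at 146 and 158 CPM in HSF1-pLVX cells (log2 fold change 1.10 ± 0.107), and FRMD8 at 63.4 and 59.9 CPM and then at 216 and 230 CPM (log2 fold change 1.85 ± 0.113). The ADAM10 partner TSPAN17 was at 191 and 178 CPM in WT and at 60.9 and 59.0 CPM in HSF1-pLVX cells (log2 fold change -1.62 ± 0.110). The 4 genes past 2-fold downwards were tetraspanins, 2 of them near the threshold, and with library size as the only scaling the number was 2. By adjusted p alone, 3 of the 9 cofactors were higher and 6 lower, beside 32.5% and 32.7% of all tested genes. The lower ones included the iRhom RHBDF1 (log2 fold change -0.68 ± 0.103), and the higher ones the tetraspanin TSPAN5 (0.75 ± 0.115), so neither kind of cofactor moved in a single direction.

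Related metzincins and ADAMTS-like proteins were tested for 7 of 13 genes, with 2 past 2-fold upwards and 2 downwards. Among all tested genes these shares were 14.9% and 14.0%. PAPLN, the matrix protein papilin, rose from 4.85 and 7.16 CPM to 21.6 and 22.4 CPM (log2 fold change 1.89 ± 0.151). TLL1, a relative of the procollagen C-proteinase BMP1, had 1.23 and 0.377 CPM in WT and 3.86 and 4.88 CPM in HSF1-pLVX cells, a log2 fold change of 2.44 that became 3.52 without WT replicate 1. ADAMTSL5 was just past 2-fold lower, with a log2 fold change of -1.01. Only 1 of these genes was at least 2-fold lower without WT replicate 1, without HSF1-pLVX replicate 1 or with library size as the only scaling.

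Among other inhibitors and inducers, 7 of 8 genes were tested, with 2 past 2-fold upwards and 2 downwards. Of all tested genes, 14.9% and 14.0% were past it. RECK, a membrane-anchored MMP inhibitor, was at 8.74 and 9.26 CPM in WT and at 8.21 and 6.69 CPM in HSF1-pLVX cells, a log2 fold change of -0.27 (95% interval -0.61 to 0.07) that was not called (adjusted p = 0.155, edgeR). TFPI2, an inhibitor of plasmin and other serine proteases, rose from 13.3 and 15.1 CPM to 53.1 and 60.9 CPM (log2 fold change 2.005 ± 0.118). LRP1, the receptor that clears proteases and their complexes with inhibitors from the medium, rose from 74.1 and 65.9 CPM to 186 and 198 CPM (log2 fold change 1.46 ± 0.110). The proteoglycan SPOCK1 fell from 70.1 and 65.0 CPM to 12.0 and 12.6 CPM (log2 fold change -2.46 ± 0.117).

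**Figure D4:**
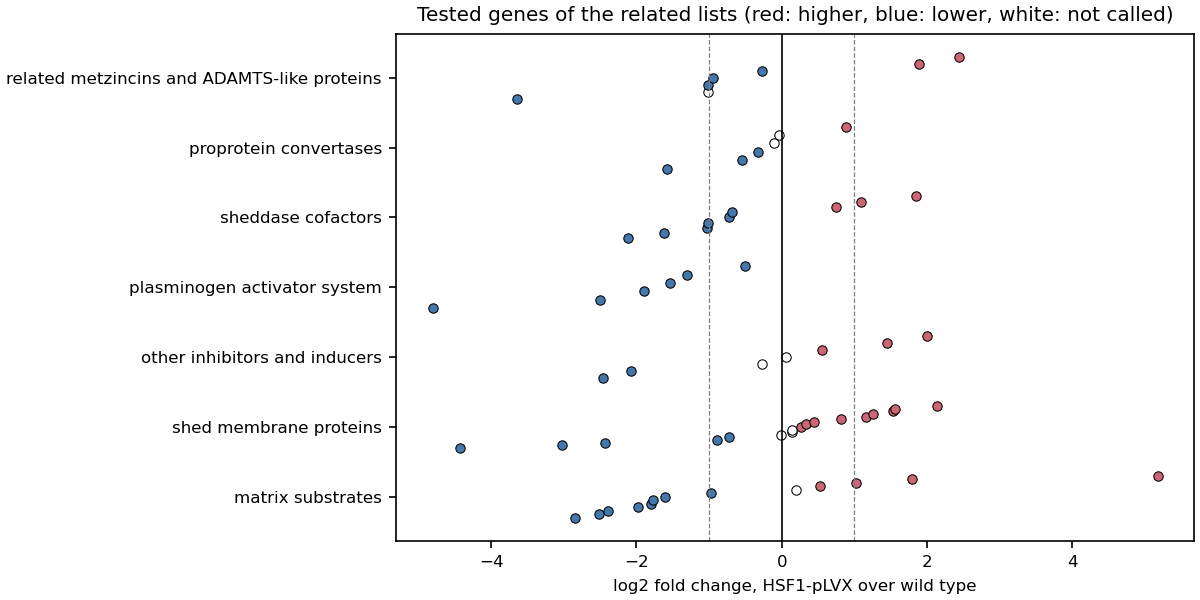
Log2 fold changes, HSF1-pLVX over wild type, of the 65 tested genes in the 7 related lists, 1 symbol per gene, red for called higher, blue for called lower and white for not called, with dashed lines at 2-fold. All 6 tested genes of the plasminogen activator system lie left of 0, while the other lists hold genes on both sides.

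Membrane proteins that ADAMs are known to shed moved both ways. Of the 18 listed, 17 were tested, with 5 past 2-fold upwards and 3 downwards. Among all tested genes these shares were 14.9% and 14.0%, so that the share of lower genes was close to that of all genes. The EGF receptor ligand AREG rose from 387 and 409 CPM to 872 and 900 CPM (log2 fold change 1.16 ± 0.145), and its relative TGFA fell from 403 and 409 CPM to 80.6 and 69.5 CPM (log2 fold change -2.44 ± 0.125). NOTCH1, a receptor cut by ADAM10, rose from 120 and 124 CPM to 344 and 363 CPM (log2 fold change 1.54 ± 0.1204). Of the 18 matrix substrates, 13 were tested, with 7 past 2-fold downwards and 3 upwards, beside 14.0% and 14.9% of all tested genes. FN1, encoding fibronectin, was at 11431 and 11491 CPM in WT and at 2559 and 1866 CPM in HSF1-pLVX cells (log2 fold change -2.39 ± 0.261). The basement membrane collagen chain COL4A2 fell from 486 and 453 CPM to 144 and 132 CPM (log2 fold change -1.77 ± 0.126).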

How the data were processed

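The authors deposited raw counts per gene for 4 RNA-seq libraries and a table of normalized values on a log2-like scale. Per the submitters' processing notes and the study's methods, reads in pairs were mapped on hg38 (HISAT2 2.0.5, SAMtools 1.13), assigned to genes of GENCODE release 26 (featureCounts 1.6.5) and normalized (DESeq2 1.32.0). The counts were used for every test. The deposited log2 values served only to list the members, whose symbols they carry, and for the study's ratio rule. Biotypes came from a later GENCODE release of the same build, and shared exonic bases from the exon positions in the table of counts. Settings for strand, overlap and multi-mapping reads are not given in the sources used here.

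Counts were tested in R 4.3.3 with edgeR 4.0.16 (TMM, filterByExpr defaults, quasi-likelihood test, Benjamini-Hochberg adjustment over 15830 genes), fitting the replicate number as a block, since the study's ratios were taken within a number. Deviations of same-numbered libraries from their group means had a correlation of -0.0147, so nothing in the counts ties the numbers together. With the block, edgeR's prior degrees of freedom were infinite, so its very small p-values and the standard errors rest on the spread shared by genes. A standard error can therefore be far smaller than the gap between the replicate pairs of a gene. Besides MMP9 this holds for TIMP3 (log2 ratios of 1.93 and 2.59 within replicates 1 and 2) and ADAMTS9 (-2.35 and -3.12). Standard errors are the fitted log2 fold change divided by the root of F, and 95% intervals are normal ones built on it. Intervals and floors cover at most counting error and the fitted spread. For large falls to few counts, as in ADAMTS1, ADAMTS6 and ADAMTS14, such a standard error can be smaller than counting error alone. Tried on simulated counts of 15405 genes made from this comparison, the blocked test recovered 84.9% of 2-fold and 99% of 4-fold changes. The simulation gave all genes the same spread and no replicate effect, and changed far fewer genes than were called here. These shares therefore need not hold for the real libraries.

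The members and lists were chosen with earlier results of these data known. Named are all members past 2-fold in both replicate pairs, a list of well-known members and the TIMPs whatever their values, members that were not called, and up to 3 abundant changed genes of each related list with RECK, FURIN, PLAU and PLAUR. Some genes that this rule names are not reported here. DESeq2 1.42.0 was an alternative.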

Additional observations from a re-analysis of the deposited data

How the results depend on the processing

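Every alternative left the numbers of members called within 1.5 times of those given. Members called higher ranged from 7 to 10 and called lower from 17 to 20. With DESeq2's size factors, with library size only, without the filter on low counts and without the replicate block, 5 members were past 2-fold upwards and 17 downwards. DESeq2's Wald test gave 4 and 16, as did the study's rule, by which the deposited values must differ 2-fold within each replicate number. Without the replicate block, no call changed among the 31 tested members or the 53 genes followed singly, and the median log2 fold change of the members was again -1.55. Among the other genes of the related lists, ADAMTSL4 (adjusted p = 0.0544, edgeR) and NOTCH3 (0.0574) lost their call without it, TLL2 (0.0400) gained one, and 3 metzincin-list genes were past 2-fold downwards. With each library left out in turn, in fits without the block that rest on 1 residual degree of freedom and assume that the lone library of a group varies like the others, it lay between -1.65 and -1.38. HSF1 had log2 fold changes from 2.29 to 2.41. Of 477 values of 53 single genes, none changed direction, 7 lost their call and 2 gained one, all given beside the genes. Of the counts in single families and lists, 190 stayed within 1.5 times and 8 moved further, in the metzincin, convertase and cofactor lists. The cause of these moves was not tested. With 2 libraries per group, depth limits what can be said of members under the filter.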

Other observations

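Further genes of the related lists, named after their values were seen, changed strongly. The EGF-family ligand EREG rose from 20.3 and 24.6 CPM to 106 and 91.1 CPM, while EPGN of the same family fell from 113 and 109 CPM to 14.4 and 12.8 CPM. The adhesion molecule L1CAM, which ADAMs shed, fell from 92.8 and 91.2 CPM to 4.78 and 3.72 CPM, and the Notch ligand JAG1 rose from 51.3 and 59.7 CPM to 161 and 165 CPM. Among matrix genes, FBN1, encoding the fibrillin that ADAMTS proteases act beside, fell from 74.0 and 56.8 CPM to 10.3 and 7.90 CPM. COL7A1, the anchoring fibril collagen, rose from 73.1 and 88.8 CPM to 255 and 305 CPM. All of these passed 2-fold in edgeR's quasi-likelihood test.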
